A study of Homo sapiens with 2 samples.

Results

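The study selected A2780 ovarian carcinoma cells for resistance to carboplatin and to carboplatin with docetaxel, and compared each resistant line on Agilent arrays with a control, A2780CC, that was co-cultured without drug. This text describes the carboplatin-resistant line, A2780CBN, selected to 22.2 µM carboplatin, which is 1 of the 2 samples and 4 of the 8 arrays of the series. It was taken as a comparison in its own right, defined from the sample labels and without regard to its values. The other sample, A2780CBNDXL, for which the labels give 8.02 µM of the drug combination, is set beside it for a few genes and gene lists only. The sample of A2780CBN is 1 pool of 3 isolations, so the 4 arrays repeat the same RNA. Arrays 1 and 3 carry forward labelling, with the resistant line in Cy5, and arrays 2 and 4 carry reverse labelling, with arrays 1 and 2 on slide 1.

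Carboplatin enters the cell partly through copper carriers, is bound by glutathione and metallothioneins, and forms adducts and crosslinks in DNA that excision and recombination repair remove. Unrepaired damage can start apoptosis. Interferon signalling through STAT and IRF factors raises antiviral genes and the MHC class I pathway, which shows peptides at the cell surface.

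Of 30238 gene names on the array, 17951 were measured in A2780CBN, and the median log2 ratio (resistant line over control) was -0.06. Between the 5th and the 95th percentile ratios ran from -0.96 to 1.41, and 66.5% of genes lay within 0.5 of 0. A gene is called here when its mean log2 ratio is at least 1 in size with the same sign on all 4 arrays, and 2253 genes (12.6%) were called. Of these, 1436 (8%) were higher and 817 (4.55%) lower in the resistant line. At 8-fold or more there were 199 higher and 124 lower genes, and at 16-fold or more 62 and 63. Both sides were well above background on all arrays for 995 of the higher and 516 of the lower genes. For 215 higher genes the control was dim on every array, and for 166 lower genes the resistant line was, so their folds are printed as lower bounds.

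The median SD over the 4 arrays was 0.24 for all measured genes and 0.32 for called ones. Mean ratios of the forward and of the reverse arrays correlated at 0.810 over measured genes, and 7.31% of genes differed by more than 1 between the labelling directions. Called genes had 620 other measured probes, of which 95.8% had the sign of the gene's own probe and 72.3% were called the same way. The sizes of changes among dim genes are the least certain. With normexp background correction, an offset of 50 and loess normalization together, an alternative called normexp below, 424 higher and 181 lower genes were called, all of them among the genes above.

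**Figure D1:**
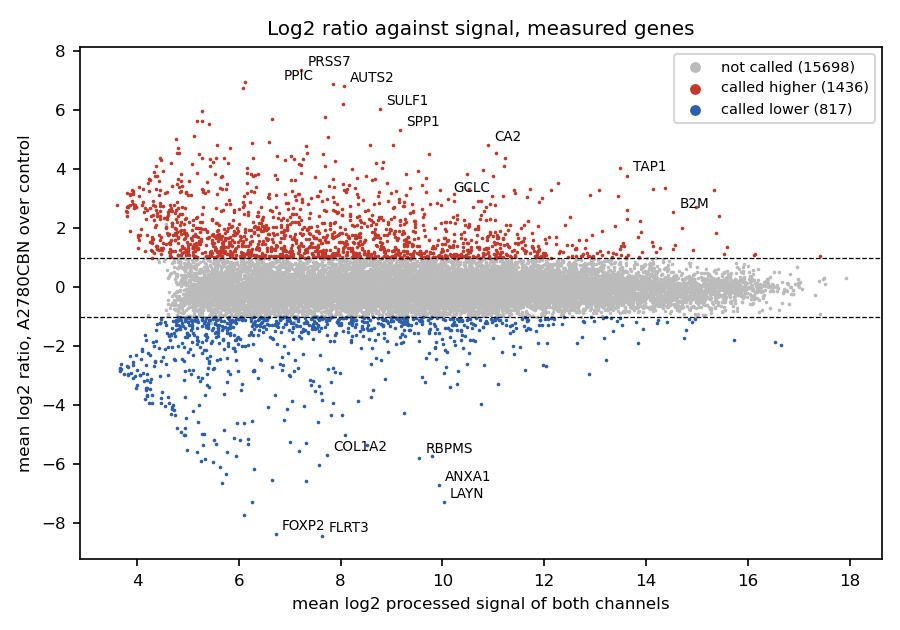
Mean log2 ratio of A2780CBN over control against the mean log2 signal of both channels, for all measured genes. Red and blue points are genes called higher and lower, and broken lines mark a 2-fold change.

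**Figure D2:**
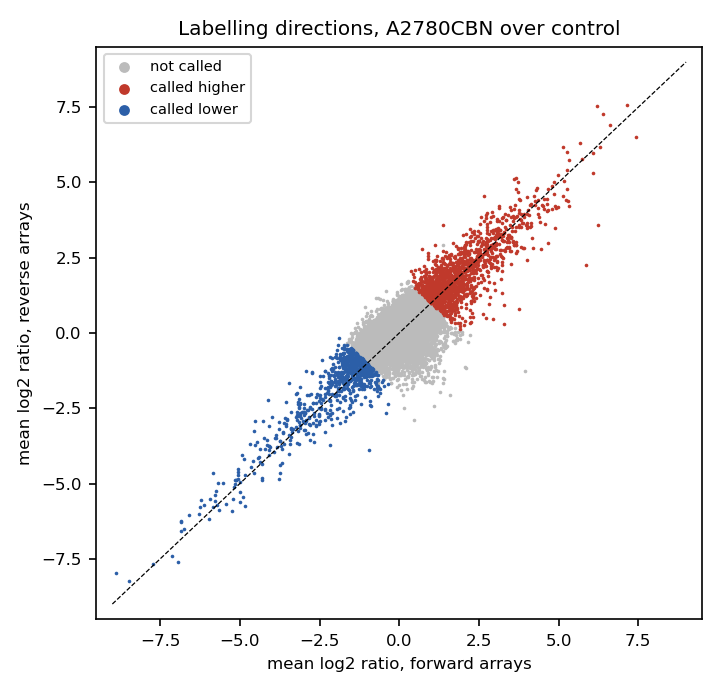
Mean log2 ratio of the 2 forward arrays against the mean of the 2 reverse arrays for each measured gene. The broken line marks equal ratios.

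Gene lists for 30 pathways and families were read beside all measured genes, of which 8% were called higher, 4.55% lower and 45% lay above 0. List members were chosen with earlier results of these data known, so shares called describe the lists and do not test them. Medians of most lists lay near that of all genes, while interferon response and MHC class I antigen presentation stood far above it. Cholesterol and fatty acid synthesis and metallothioneins were also above it, at smaller sizes. Lists of drug transport, mismatch repair, crosslink repair and the respiratory chain held no member called by its brightest probe.

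**Figure D3:**
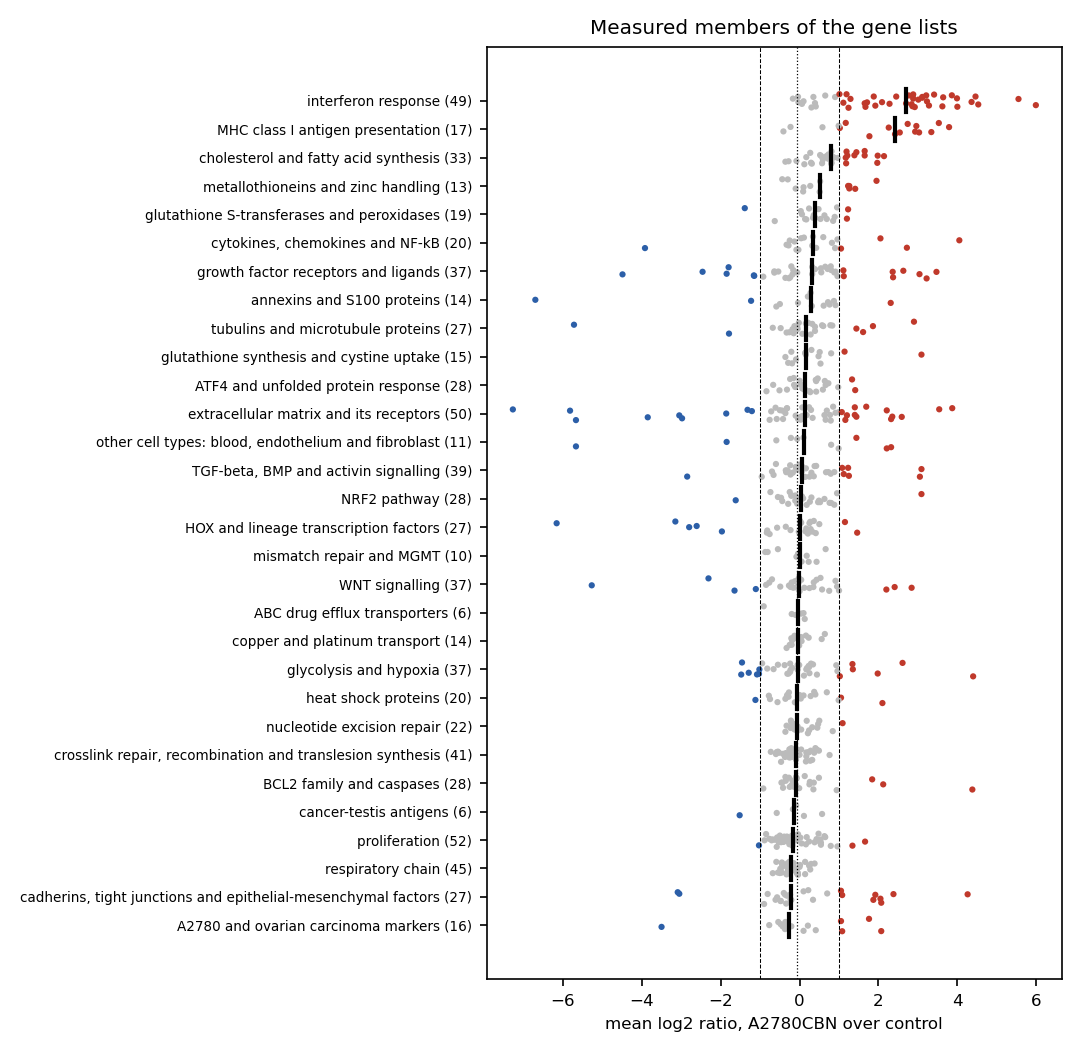
Mean log2 ratio of each measured member of the 30 gene lists, with the number measured in brackets. Black bars are list medians, the dotted line is the median of all genes, and red and blue points are called members.

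Of 49 measured members of the interferon response list, 38 (77.6%) were called higher and none lower, beside 8% and 4.55% of all genes. The list median was 2.70, and 46 members lay above 0. On arrays 1 to 4 the list median was 2.43, 2.48, 2.50 and 2.46. All 4 arrays thus stood at nearly the same height for the list as a whole, whichever dye the resistant line carried.

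Some signalling genes on the list were called and others were not. IRF1, a factor that activates interferon-responsive promoters, had log2 ratios of 2.94, 2.90, 2.86 and 2.76 on arrays 1 to 4, a 7.28-fold rise that was even across arrays. IRF9 (1.71) and STAT2 (1.67), which are part of the complex formed after type I interferon, also rose, IRF9 more on the forward arrays. The kinase JAK1 rose by 1.11, whereas its partner TYK2 (0.35) and the receptor chains IFNAR1 (-0.03), IFNAR2 (0.10), IFNGR1 (0.39) and IFNGR2 (0.41) were not called. Among the sensors of viral RNA, IFIH1 rose by 2.87 and DDX58 by 1.65, and the factor IRF3 (-0.17), which acts below both sensors, was not called. Interferon beta itself, IFNB1, was above background in neither channel on any array, and neither was IRF7.

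MX1, a GTPase that blocks viral particles, had ratios of 3.94, 3.63, 4.22 and 4.21, a 16-fold rise. OAS3, which makes the second messenger that activates RNase L, gave 4.88, 4.02, 4.94 and 4.27, or 23-fold, and was highest on the forward arrays, while another OAS3 probe gave 2.96. IFI27, a mitochondrial protein induced by interferon alpha, stood at 4.08, 4.01, 3.96 and 3.90, or 15.9-fold, with hardly any spread. HERC6 (4.36), a ubiquitin ligase, and XAF1 (4.46), an antagonist of the inhibitor of apoptosis XIAP, rose more than 16-fold. The control was above background for XAF1 on 2 arrays only. A second HERC6 probe was called higher too, over a control dim on every array. The guanylate binding protein GBP1 rose by 3.86 and the poly-ADP-ribose polymerase PARP9 by 3.23. Its partner DTX3L, a ubiquitin ligase, rose by 2.88.

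Among the 4 IFIT genes on the list, which bind foreign RNA, IFIT3 rose by 3.28, IFIT2 by 2.92, IFIT1 by 1.88 and IFIT5 by 1.19. The ubiquitin-like modifier ISG15 rose by 1.29, with its conjugating enzyme UBE2L6 at 2.28 and its protease USP18 at 1.24. UBA7, the enzyme that activates ISG15 and 1 of the 15 largest rises among genes measured on both sides, had ratios of 5.29, 4.12, 5.36 and 4.34. SAMD9 and SAMD9L, neighbouring genes of antiviral proteins, were at least 13.8-fold and 13.1-fold higher over a control that was dim on every array. RSAD2 (at least 3.07-fold), OAS1 (at least 2.47-fold), OAS2 (at least 5.49-fold), GBP2 (at least 4.55-fold) and IFI16 (at least 3.19-fold) had a dim control as well. Not called were the kinase EIF2AK2 (0.90), the ligase HERC5 (0.65), the tetherin gene BST2 (0.30) and the membrane proteins IFITM2 (0.06) and IFITM3 (-0.04). With normexp 25 of the 38 calls held, and those of STAT2, JAK1, DDX58, IFIH1, IFI16, OAS1, OAS2, RSAD2, GBP2, DTX3L, SAMD9L, PLSCR1 and TRIM22 ended, with a list median of 1.01. A stricter linear model without genes that had a dye or slide term called 23 of the 38, and IRF1, IRF9, JAK1, DDX58, IFI6, IFI35, IFIT1, IFIT2, ISG20, OAS2, OAS3, OASL, PARP14 and PLSCR1 were among those it left out.

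**Figure D4:**
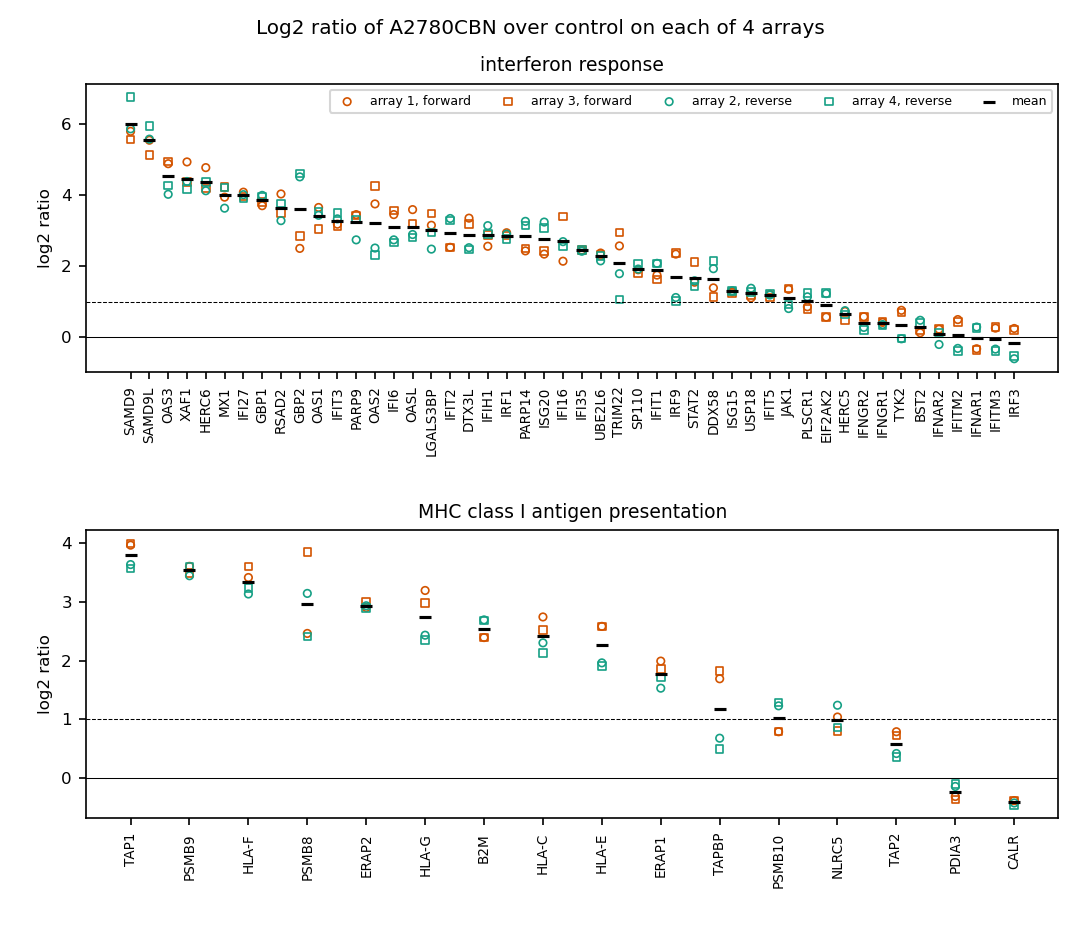
Log2 ratio on each of the 4 arrays for most measured members of the interferon response and MHC class I lists. Orange marks are forward and green marks reverse arrays, black bars are means, and the broken line marks a 2-fold rise.

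In the MHC class I list 13 of 17 measured members (76.5%) were called higher and none lower, and the median was 2.42. Per array this median was 2.46, 2.30, 2.52 and 2.13, a little higher with forward labelling. TAP1, a subunit of the peptide transporter into the endoplasmic reticulum, had ratios of 3.96, 3.63, 3.99 and 3.56, a 13.8-fold rise at high signal. PSMB9, a subunit of the immunoproteasome that cuts peptides for presentation, gave 3.60, 3.44, 3.49 and 3.59, or 11.5-fold. Its companion subunits PSMB8 (2.96) and PSMB10 (1.02) rose too, PSMB8 from a control above background on 1 array. Peptide trimming enzymes ERAP1 (1.77) and ERAP2 (2.93) and the loading factor TAPBP (1.17) were higher, TAPBP mainly on the forward arrays.

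The heavy chains HLA-C (2.42), HLA-E (2.26), HLA-F (3.34) and HLA-G (2.74) rose, although probes of these similar genes may take up transcripts of each other. B2M, the light chain that all of them share, had ratios of 2.39, 2.69, 2.39 and 2.68, a 5.81-fold rise, with the reverse arrays slightly above the forward ones. The transporter subunit TAP2 (0.58) and the chaperones CALR (-0.41) and PDIA3 (-0.23) were not called. For the class I transactivator NLRC5 the brightest probe was just under the limit (0.99), while its 2 other measured probes were called higher (2.80 and 3.03). Other probes of B2M (0.79) and TAPBP (0.88 and 0.69) were not called. HLA-B had an outlier spot on its brightest probe and was not measured, while its other probe stood at 3.63. With normexp the calls of PSMB8, PSMB10 and ERAP1 ended, and the stricter model called 6 of the 13, without HLA-E, HLA-G, B2M, TAPBP, PSMB9, PSMB10 and ERAP2.

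Promoters were read for a core of the interferon-stimulated response element, GAAANNGAA, on both strands, over 250 bases before to 50 bases after each RefSeq start. It occurred in 8.29% of all 27305 promoters and in 6.27% of the 10250 measured genes with a promoter. Genes called higher held it in 10.6% (91 of 861) and genes called lower in 4.07% (16 of 393). Among interferon response members with a promoter it was present in 21 of 38 (55.3%), in 17 of 30 called higher and in 4 of 8 not called. MHC class I members held it in 7 of 13 (53.8%). PARP9, IRF1, OAS1 and PSMB9 rose without a match in this stretch. A match describes the sequence only, and binding was not measured.

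For 5 risen genes the stretch is printed below from RefSeq GRCh38.p14 in the direction of transcription, with the interferon core in capitals. TAP1 has 2 matches that overlap (chr6:32853655-32853954, minus strand), and DTX3L, which lies beside PARP9, has 1 (chr3:122564088-122564387, plus strand). IFIT3 has 2 separate matches (chr10:89327747-89328046, plus strand), IFIH1 has 4 (chr2:162318635-162318934, minus strand) and MX1 has 2 that overlap (chr21:41420308-41420607, plus strand).
TAP1: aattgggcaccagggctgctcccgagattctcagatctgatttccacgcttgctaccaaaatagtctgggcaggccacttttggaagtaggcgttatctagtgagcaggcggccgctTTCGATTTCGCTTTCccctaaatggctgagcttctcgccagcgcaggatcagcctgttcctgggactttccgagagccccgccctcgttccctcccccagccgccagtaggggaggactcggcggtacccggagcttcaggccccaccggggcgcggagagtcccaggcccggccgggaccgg
DTX3L: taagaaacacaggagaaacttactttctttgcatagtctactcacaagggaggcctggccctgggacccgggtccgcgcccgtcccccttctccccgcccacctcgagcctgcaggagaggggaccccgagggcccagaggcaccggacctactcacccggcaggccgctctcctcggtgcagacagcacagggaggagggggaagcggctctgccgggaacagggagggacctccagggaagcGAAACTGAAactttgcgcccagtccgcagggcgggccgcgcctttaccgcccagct
IFIT3: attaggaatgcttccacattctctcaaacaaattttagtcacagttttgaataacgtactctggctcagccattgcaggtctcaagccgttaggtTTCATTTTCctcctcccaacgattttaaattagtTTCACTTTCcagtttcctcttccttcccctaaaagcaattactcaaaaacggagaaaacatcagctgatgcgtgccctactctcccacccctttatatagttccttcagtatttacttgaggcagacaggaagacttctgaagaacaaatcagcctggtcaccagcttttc
IFIH1: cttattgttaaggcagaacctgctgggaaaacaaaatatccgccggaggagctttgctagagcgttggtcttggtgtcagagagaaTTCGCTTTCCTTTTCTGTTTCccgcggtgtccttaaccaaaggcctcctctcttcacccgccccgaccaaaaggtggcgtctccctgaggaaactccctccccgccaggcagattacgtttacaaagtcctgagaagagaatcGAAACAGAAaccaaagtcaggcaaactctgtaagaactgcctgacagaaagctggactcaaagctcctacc
MX1: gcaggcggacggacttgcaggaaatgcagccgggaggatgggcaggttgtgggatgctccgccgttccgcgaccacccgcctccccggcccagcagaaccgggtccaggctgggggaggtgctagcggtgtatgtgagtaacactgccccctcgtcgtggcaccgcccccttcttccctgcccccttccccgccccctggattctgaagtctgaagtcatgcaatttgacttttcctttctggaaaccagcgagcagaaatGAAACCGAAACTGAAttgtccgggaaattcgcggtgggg

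None of 14 measured members of copper and platinum transport was called, the median was -0.03, and values ran from -0.33 to 0.64. SLC31A1, the copper importer that also carries platinum drugs, stood at -0.13, and the copper exporters ATP7A and ATP7B at -0.05 and 0.04. The copper chaperone ATOX1 (0.56) and LRRC8A (-0.33), the essential subunit of the volume-regulated channels, were not called. Among ABC efflux transporters 6 of 13 were measured and none was called by its brightest probe, with ABCC1 at 0.13, ABCC4 at -0.20 and ABCG2 at -0.91. ABCC6 stood at 0.10 on that probe, but 2 other probes were called higher (1.57 and 1.30), so the size of its change is uncertain. ABCB1, ABCC2 and ABCC3 were above background in neither channel on any array.

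GCLC, the catalytic subunit of the enzyme that limits glutathione synthesis, had ratios of 2.78, 3.22, 2.73 and 3.62, an 8.50-fold rise. Reverse arrays were the higher ones for GCLC, and a second probe of the gene stood at 3.52, but GCLC is not among the calls of the linear model that drops genes with a dye or slide term. Its regulatory partner GCLM (-0.29), the next enzyme GSS (0.53) and the reductase GSR (-0.21) were not called. The cystine carrier subunit SLC7A11 stood at 0.80 on its brightest probe, while of its other probes 1 was called higher (1.01) and 1 was not called (0.62). CTH, which makes cysteine from cystathionine, had a mean of 1.14 with higher values on the reverse arrays, and its call ended with normexp and in the stricter model. In this list 2 of 15 members (13.3%) were called, both of them higher, beside 8% of all genes, and the median was 0.16.

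Of 19 measured glutathione transferases and peroxidases 2 (10.5%) were called higher and 1 (5.26%) lower, beside 8% and 4.55% of all genes. The median was 0.40 (0.34 with normexp), and 17 members lay above 0, beside 45% of all genes. GSTO1, an omega class transferase, had ratios of 1.08, 1.27, 1.20 and 1.25, a 2.30-fold rise. GSTM2, a mu class transferase, gave 1.95, 0.41, 2.15 and 0.41, so that its mean of 1.23 came mostly from the forward arrays. The secreted peroxidase GPX3 was lower (-1.39) at low signal. GSTP1, the main transferase of many tumour lines, stood at 0.17. GSTM2 and GPX3 were not called with normexp, and GSTO1 and GSTM2 not in the stricter linear model.

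The NRF2 pathway list lay near the median of all genes, with a median of 0.04. Of 28 members 1 (3.57%) was higher (GCLC) and 1 (3.57%) lower, beside 8% and 4.55% of all genes. NQO1 (-0.04), a quinone reductase, TXNRD1 (0.18), a thioredoxin reductase, and SRXN1 (-0.11), a sulfiredoxin, stood near 0, and the heme oxygenase HMOX1 (0.88) was below the limit. AKR1C3, a ketosteroid reductase, was at least 2.50-fold lower, since the resistant line was dim on every array, and this call ended with normexp. A core of the antioxidant response element, TGACNNNGC, occurred in 13.6% of all promoters and 15.3% of those of measured genes, and in 14.3% of genes called higher, 10.4% called lower and 15.6% not called. The GCLC promoter stretch held no match.

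Metallothioneins, small proteins that bind zinc, copper and platinum through cysteines, were raised in part. Of 13 measured members of their list 5 (38.5%) were called higher and none lower, beside 8% and 4.55% of all genes, and the median was 0.51. MT2A had ratios of 1.97, 1.94, 1.95 and 1.94, a 3.87-fold rise and the most even value of the list. MT1G (1.41), MT1E (1.26) and MT1B (1.23) rose as well, and MT1M by at least 1.98-fold over a dim control. A second MT1G probe was not called (0.14), and MT1G was not called in the stricter linear model. MT1X (0.52), MT1H (0.51) and the activating factor MTF1 (-0.44) were not called, and the zinc exporter SLC30A1 stood at -0.30 on its brightest probe and at -1.10 on another. With normexp only the call of MT2A held and the list median was 0.23, and MT1 probes may take up related transcripts.

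The core of the metal response element, TGCACNC or TGCGCNC, was common, with at least 1 match on either strand in 29.3% of all promoters and 38.2% of those of measured genes. Genes called higher held it in 35.2%. Among the metallothioneins MT2A and MT1H, which was not called, have 8 matches each, MT1X, not called, has 4 and MT1B, called, has 3. The same stretch of MT2A is printed with its matches in capitals (chr16:56608334-56608633, plus strand, RefSeq GRCh38.p14).
MT2A: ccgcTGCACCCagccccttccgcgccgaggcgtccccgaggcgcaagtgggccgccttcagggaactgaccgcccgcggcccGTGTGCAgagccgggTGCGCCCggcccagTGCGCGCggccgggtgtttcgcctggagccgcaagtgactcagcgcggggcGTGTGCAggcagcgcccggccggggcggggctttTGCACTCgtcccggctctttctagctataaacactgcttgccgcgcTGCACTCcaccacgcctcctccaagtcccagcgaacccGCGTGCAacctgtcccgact

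Of 22 nucleotide excision repair members only DDB2, which recognizes damage in chromatin, was called, at 1.09 with higher reverse arrays, and the stricter model did not call it. ERCC1 (0.50) and ERCC4 (-0.23), whose proteins form the nuclease that cuts beside platinum adducts, and XPA (-0.36) were not called, and XPC had an outlier spot. None of 10 mismatch repair members was called, with MSH3 at -0.87 and MSH6 at 0.18. None of 41 members for crosslink repair, recombination and translesion synthesis was called either, and their median was -0.08. In that list BRCA1 (0.40), BRCA2 (-0.47), FANCD2 (-0.06) and the bypass polymerases POLH (0.76) and REV3L (0.37) all stayed under the limit.

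In the BCL2 and caspase list 3 of 28 members rose, none fell and the median was -0.09. Among the risen ones the inflammatory caspase CASP1 stood at 1.84. BIRC3, an inhibitor of apoptosis that also acts in NF-kB signalling, was at least 10.6-fold higher over a dim control, and it was not called with normexp. BCL2 (-0.01), BCL2L1 (-0.08), MCL1 (-0.21), CASP8 (-0.07) and CASP9 (-0.25) stood near or below 0.

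Proliferation genes had a median of -0.17, with 34 of 52 below 0. Only 2 (3.85%) were called higher and 1 (1.92%) lower, beside 8% and 4.55% of all genes. CDKN1A, the inhibitor p21 that arrests the cell cycle, had ratios of 1.77, 0.92, 1.76 and 0.89, a 2.53-fold rise with the forward arrays higher. CDKN1C, the inhibitor p57, rose by 1.66, while the G1 kinase CDK6 fell (-1.03), a call that ended with normexp and was not shared by a second probe (-0.46). The replication helicase subunits MCM2 (-0.47), MCM3 (-0.53), MCM4 (-0.71), MCM6 (-0.69) and MCM7 (-0.85) were all below 0 and not called. MKI67 (0.65) and TOP2A (0.96) lay above 0. The respiratory chain had none of 45 members called and a median of -0.23, and 37 members lay below 0. Per array that median was -0.23, -0.18, -0.28 and -0.14, below 0 each time.

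In the ATF4 and unfolded protein response list 2 of 28 members (7.14%, beside 8% of all genes) rose, the pseudokinase TRIB3 (1.41) and the chromatin protein NUPR1 (1.33), and the median was 0.14. DDIT3 (0.41) and HSPA5 (-0.15) were not called, ASNS stood at -0.14 on its brightest probe and was called higher on another (2.21), and ATF4 and XBP1 had outlier spots. Of 20 heat shock members 2 (10%) were higher and 1 lower. HSF2, a heat shock factor, had ratios of 1.96, 2.37, 1.78 and 2.29, a 4.28-fold rise. DNAJB4 (1.05) was higher and HSPH1 (-1.12) lower. Only the DNAJB4 call ended with normexp, and those of HSPH1, DNAJB4 and TRIB3 ended in the stricter model. HSPA1A was not called on its brightest probe, while another probe was called lower (-3.44) and a further one was not called (0.21).

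Of 33 measured members of cholesterol and fatty acid synthesis 11 (33.3%) were called higher and none lower, beside 8% and 4.55% of all genes. The median was 0.80, and 30 lay above 0, as did 45% of all genes. The array medians were 0.76, 0.80, 0.69 and 0.77. MSMO1, a methylsterol oxidase, had ratios of 2.16, 1.86, 2.43 and 2.10, a 4.40-fold rise. SC5D, a sterol desaturase, gave 1.89, 2.12, 1.79 and 2.14, or 3.96-fold. Both enzymes act late in the pathway, and neither depended on the labelling direction for its call.

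HMGCS1 (1.65), an early enzyme of the pathway, FDFT1 (1.19), which makes squalene, TM7SF2 (1.17) and HSD17B7 (1.44) rose among the other sterol enzymes. INSIG1 (1.65), which holds the sterol sensor in the endoplasmic reticulum, and the sterol carrier STARD4 (1.18) rose with them. On the fatty acid side ACSS2 (1.97), ACSL1 (1.39) and ACLY (1.21), which all make acyl-CoA, were higher. Below the limit lay SREBF2 (0.81), LSS (0.81), IDI1 (0.80), SCD (0.79, other probes -0.43, 0.61 and -0.20) and FASN (0.73), and ACACA stood at -0.36. With normexp the calls of HSD17B7 and STARD4 ended, and the list median was 0.72. The stricter linear model called 4 of the 11, without INSIG1, HMGCS1, TM7SF2, HSD17B7, STARD4, ACLY and ACSS2, and another probe of ACSS2 gave 0.33.

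Glycolysis and hypoxia genes went both ways, with 6 of 37 higher and 6 lower (16.2% each), beside 8% and 4.55% of all genes. HK2, the first enzyme of glycolysis, fell (-1.29), as did the glucose carrier SLC2A3 (-1.46), ENO2 (-1.02), PDK1 (-1.03), the mitophagy receptor BNIP3 (-1.48) and HIF1A (-1.08). EPAS1, the second hypoxia factor, was at least 14.8-fold higher over a dim control, and NDRG1 at least 5.47-fold. LOX (1.98), ALDOC (1.34), P4HA2 (1.35) and SLC16A3 (1.02) rose too. GAPDH (-0.01), PGK1 (-0.38), LDHA (-0.82) and VEGFA (-0.24) were not called. Only HK2, BNIP3, ALDOC and P4HA2 were still called with normexp, and the stricter model called 5 of the 12, ALDOC and P4HA2 not among them.

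Cadherin, tight junction and mesenchymal genes gave 8 higher (29.6%) and 2 lower (7.41%) of 27, beside 8% and 4.55% of all genes. The median of the list was -0.23. EPCAM (2.07), an epithelial adhesion molecule, F11R (2.05), a tight junction protein, the cadherins CDH3 (1.92), CDH7 (2.38) and CDH10 (1.87) and KRT18 (1.05) rose, and a second CDH7 probe gave 1.05. VIM, the mesenchymal filament, had ratios of 1.73, 0.53, 1.59 and 0.49, with the forward arrays higher and a mean of 1.08, and a second VIM probe was called higher at 1.06 with an SD of 0.17. FN1, the fibronectin gene, was at least 8.75-fold higher over a dim control, and another FN1 probe was called higher, also over a dim control. TWIST2 and ZEB2, repressors of epithelial genes, were at least 4.70-fold and 2.54-fold lower. The calls of F11R, CDH10 and VIM held with normexp and the others ended, and the stricter linear model called 4 of the 10, none of these 3 among them. CDH2, the cadherin typical of A2780, stood at -0.21, and CDH1 was too dim to be measured.

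Matrix genes and their receptors were called both ways, with a median of 0.13. Of 50 members 13 (26%) were higher and 9 (18%) lower, beside 8% and 4.55% of all genes. COL1A2, a fibrillar collagen chain, had ratios of -5.66, -5.60, -5.89 and -5.53, with the resistant line above background on 3 arrays only, and a mean of -2.35 with normexp. COL11A1 was at least 13.3-fold lower and FBN2, a fibrillin, fell by 3.05 on the log2 scale. VCAN (-2.98), MMP3 (-3.85), LAMA1 (-1.86) and the integrin chain ITGA6 (-1.21) were lower. LAYN, a hyaluronan receptor and the lowest gene measured on both sides, gave -6.82, -7.44, -7.44 and -7.40. Array 1 was the least extreme for LAYN, and a second probe, also called lower, gave -3.17, so the size of the fall is uncertain.

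Higher matrix genes were COL5A1 (2.59), COL3A1 (1.44), COL6A1 (1.16), FBN1 (1.69), SPARC (1.20), TGFBI (3.54), DCN (2.21), MMP10 (1.40), TIMP2 (1.40) and ITGA3 (1.07). LAMB1, COL12A1 and LUM were at least 11.9-fold, 3.56-fold and 2.21-fold higher over a dim control. Of the 22 matrix calls 13 held with normexp and 11 in the stricter model, which left out COL3A1, COL5A1, COL12A1, SPARC, TGFBI, FBN1, VCAN, LUM, ITGA6, MMP3 and TIMP2, and another COL6A1 probe was not called (0.78). Of the other LAMA1 probes 2 were called lower (-1.72 and -1.69) and 1 measured probe was not (-0.33). Annexins and S100 proteins split as well, with ANXA4 at 2.31, S100A11 at -1.23 and ANXA1, an inhibitor of phospholipase A2, at -6.74, -6.44, -6.94 and -6.69 on the 4 arrays, or 104-fold lower. S100A11 was lower mainly on the reverse arrays, its call ended with normexp, and the stricter model called neither it nor ANXA1.

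Growth factor receptors and ligands had 8 higher (21.6%) and 6 lower (16.2%) of 37, beside 8% and 4.55% of all genes. Their median was 0.32. ERBB4, a receptor of the EGF receptor family, had ratios of 2.82, 3.85, 3.02 and 4.18, an 11.1-fold rise with the reverse arrays higher. PDGFRB rose by 2.36 with the ligand PDGFC (3.04), whereas PDGFRA fell (-1.85). ROR2 (2.63), GAS6 (2.37), FGFR1 (1.12) and IGFBP6 (1.11) rose, and RET was at least 5.25-fold higher. IGF1R (-2.46), IGFBP2 (-1.16), FGF18 (-1.80), FLT4 (-1.15) and VEGFC (-4.49), a ligand of FLT4, were lower. EGFR (-0.06) and ERBB2 (0.39) were not called. With normexp the calls of FGFR1, IGF1R, FLT4, RET and IGFBP6 ended, and the stricter model called 8 of the 14, without ERBB4, PDGFRA, FGFR1, PDGFC, IGFBP2 and IGFBP6. Of 4 other measured FGFR1 probes 3 were called higher (1.06, 1.02 and 1.18) and 1 was not (-0.04), and another FLT4 probe was not called (-0.72).

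WNT signalling had 3 higher (8.11%) and 4 lower (10.8%) of 37, beside 8% and 4.55% of all genes. WNT4 and WNT6 were not called on their brightest probes. Another WNT4 probe was called higher over a control dim on every array, and another WNT6 probe was called lower (-1.28). The receptor FZD8 fell by 5.27 on the log2 scale, FZD3 (-1.11), WNT3A (-1.65) and RSPO3 (-2.31) were lower, and the inhibitor DKK3 (2.84), the ligase RNF43 (2.41) and WNT2B (at least 2.49-fold) were higher. Of these only FZD8 and DKK3 were called with normexp, and FZD3, DKK3 and RSPO3 were not called in the stricter model. Among 39 TGF-beta and BMP members 6 (15.4%) rose and 1 (2.56%) fell, beside 8% and 4.55% of all genes. TGFB2, a ligand, had ratios of 3.00, 3.16, 2.98 and 3.22, an 8.51-fold rise that was even across arrays. BMP5 (3.05), BMP7 (1.25), TGFB3 (1.08), the receptor TGFBR2 (1.12) and LTBP1 (1.23) rose and BMP4 was at least 1.57-fold lower. The calls of TGFB3, TGFBR2, BMP4 and LTBP1 ended with normexp, another probe of TGFB3 gave 0.91, and the stricter model left out TGFB3, TGFBR2, BMP7 and LTBP1.

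Of 41 cytokine, chemokine and NF-kB genes 20 were measured. Of these 4 (20%) were higher and 1 (5%) lower, beside 8% and 4.55% of all genes. IL15, a cytokine that acts on lymphocytes, had ratios of 6.03, 1.93, 5.66 and 2.59, so the forward arrays were far above the reverse ones and the size of its mean (4.05) is uncertain. IL6R (2.72) and NFKB2 (1.05) rose, TNFSF10 was at least 1.88-fold higher, and the chemokine receptor ACKR3 was at least 3.29-fold lower. IL6, CXCL8, CXCL10 and CCL2 were too dim to be measured. With normexp only the IL15 call held, and the stricter model left out TNFSF10 and NFKB2.

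Developmental transcription factors were mostly dim. Of 27 measured members 2 (7.41%) rose and 5 (18.5%) fell, beside 8% and 4.55% of all genes. HOXB9, a homeobox gene of the posterior axis, had ratios of -2.96, -2.63, -2.95 and -2.65, a 6.95-fold fall. Its neighbours HOXB5 (-2.61) and HOXB6 (-1.97) fell and HOXB8 was at least 3.97-fold lower, while HOXB4 (-0.82) and HOXB3 (-0.57) were not called. HOXB7 stood at -0.35 on its brightest probe and was called lower on another (-1.69). SOX9 was at least 29.2-fold lower, MEIS1 (1.46) and NR5A2 (1.15) were higher, and PAX8 stood at 0.21. The calls of HOXB8 and NR5A2 ended with normexp and those of HOXB5, HOXB9 and MEIS1 in the stricter model. Another NR5A2 probe was called higher over a control dim on every array.

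Tubulins and microtubule proteins had 4 higher (14.8%) and 2 lower (7.41%) of 27, beside 8% and 4.55% of all genes. TUBB2B (1.86), STMN3 (1.44), MAP6 (2.90) and MAPRE3 (1.61) rose. MAP1B fell (-1.79), and MAP2 was at least 19.5-fold lower. MAPRE3 was high on the forward arrays only, and TUBB2B, MAP6 and MAPRE3 were not called with normexp, nor MAP1B and MAPRE3 in the stricter model. Among 16 markers of A2780 and ovarian carcinoma VIM, KRT18 and EPCAM, named above, were among those that rose. LIN28A, an RNA binding protein of stem cells, gave -3.51, -3.58, -3.37 and -3.54, an 11.3-fold fall. Cancer-testis antigens were nearly all dim, and of 6 measured ACTL8 (-1.52) was lower until normexp ended its call. Among markers of other cell types 11 of 26 were measured, and CD3E (0.10), CD14 (-0.59), CD68 (0.80) and HBA1 (-0.22) were not called, while PTPRC, HBB and PECAM1 were too dim. In that list of other cell types the called members were matrix or growth factor genes named above.

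Genes are ranked here as measured on both sides when the dimmer side was above background on at least 1 array. The largest such rise was PRSS7, the intestinal enteropeptidase, at 7.36, followed by PPIC (6.88), a cyclophilin, AUTS2 (6.83), a chromatin regulator, and EPDR1 (6.23). This order depends on the processing. With normexp PRSS7 stood at 2.90, below CA2 (3.99), SULF1 (3.52), AUTS2 (3.35) and others named here. PRSS7 gave 6.49, 6.30, 7.81 and 8.84 and PPIC 6.21, 7.13, 6.22 and 7.96, so slide 2 was higher for PRSS7 and the reverse arrays for PPIC. SULF1, an enzyme that trims heparan sulfate, had an even 6.01, 6.04, 6.16 and 5.94. The protease PAPPA (5.76), the matrix protein SPP1 (5.33), the factor ARNT2 (5.10), the scaffold IQGAP2 (4.94) and the glycosyltransferase LARGE (4.91) came next. LARGE was higher on the forward arrays. CA2, a carbonic anhydrase, F2R, the thrombin receptor (each 4.83), ACSS1 (4.82), a mitochondrial acetate enzyme, UBA7 (4.78) and GBP3 (4.72) completed the top 15. PPIC, EPDR1, CA2, F2R and UBA7 were not called in the stricter linear model. The control was above background on 1 to 3 arrays only for PRSS7, PPIC, AUTS2, EPDR1, PAPPA, ARNT2, IQGAP2, LARGE, UBA7 and GBP3. A second EPDR1 probe gave 1.73, and a second AUTS2 probe was called higher over a control dim on every array.

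At the other end LAYN and ANXA1 were followed by the neuropeptide gene CARTPT (-6.02), RBPMS (-5.77), an RNA binding protein, PCDH17 (-5.71), a protocadherin, and COL1A2. RBPMS gave -5.65, -6.20, -5.63 and -5.58, with array 2 the most extreme. TRIM53 (-5.55), ASXL3 (-5.34), FZD8, CRNDE (-5.25), the adhesion protein TES (-4.99), MARCH4 (-4.56), the retinal dehydrogenase ALDH1A1 (-4.54), VEGFC and TRIM49 (-4.31) completed the lowest 15. The resistant line was above background on 1 to 3 arrays only for TRIM53, CRNDE, ALDH1A1, CARTPT, FZD8, VEGFC and COL1A2, so the size of these ratios is uncertain. ANXA1, TRIM53 and CRNDE were not called in the stricter linear model. With normexp all ratios were smaller and their order changed, with CARTPT at -2.52 beside PCDH17 at -3.68.

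With a control dim on every array the largest lower bounds were those of GNA14, a G protein subunit (at least 34.5-fold higher), APOL3, an apolipoprotein (32.2-fold), and the lectin CLEC1A (31.3-fold). EPAS1, SAMD9, SAMD9L, C11orf41 (12.2-fold), LAMB1, CLEC12B (11.5-fold) and ADAM23 (11.3-fold) followed. These bounds hold for the brightest probe only, and another APOL3 probe gave a log2 ratio of 1.87. Other measured probes of GNA14 and C11orf41 were called higher over a control dim on every array, so no size is printed. With normexp the calls of EPAS1, SAMD9L, LAMB1 and ADAM23 ended, and the stricter linear model did not call C11orf41. With a dim resistant line the largest were FLRT3, an adhesion protein (at least 162-fold lower), the transcription factor FOXP2 (83.5-fold) and the exchange factor VAV3 (67.4-fold). TNFRSF19 (43.4-fold), KANK4 (42.6-fold), C7orf58 (41.4-fold), SOX9, XIRP2 (22.2-fold), FRMD7 (21.2-fold) and SRPX2 (20.1-fold) came after them. Other measured probes of FOXP2, VAV3, TNFRSF19 and C7orf58 were also called lower. The resistant line was dim on every array for these probes too, so no size is printed. FLRT3 and KANK4 were not called in the stricter linear model.

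Ratios were also read along the chromosomes, in the order of probe positions given with the array on NCBI36, in 17160 windows of 25 measured genes. From the 5th to the 95th percentile window medians ran from -0.30 to 0.34, and 342 windows were at 0.5 or above and 131 at -0.5 or below. The highest, from GABBR1 to HLA-L on chromosome 6, had a median of 2.10 and 14 higher genes, HLA-F and HLA-G among them. From GLUD1 to IFIT5 on chromosome 10 the median was 1.05 with 13 higher genes, which include FAS and the 4 IFIT genes. On chromosome 8 the window that starts at CHMP4C and holds CA2, CA3 and CA13 stood at 0.91 with 12 higher genes. Lowest were MKI67 to CYP2E1 near the end of chromosome 10 (-0.89, 11 lower genes, BNIP3 among them) and SH3BP4 to ASB1 near the end of chromosome 2 (-0.86, 9 lower genes).

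Longer stretches were shifted as a whole, with limits that were chosen after the values were seen. On chromosome 17 the 470 genes up to KRT10 had a median of -0.13, and the 581 from TMEM99 to METRNL a median of 0.37, with 16.2% of them called higher beside 4.89%. Array medians of the second stretch were 0.39, 0.36, 0.34 and 0.34. On chromosome 10 the 500 genes between ZNF33B and UROS had a median of 0.26, and the 30 from BCCIP on a median of -0.46. On chromosome 2 the first 385 genes, up to FBXO41, had a median of 0.33 and the next 715 a median of -0.16. The last 67 genes of chromosome 2, from ATG16L1 on, had a median of -0.81, 22 called lower and none higher. On its last stretch the arrays gave -0.83, -0.90, -0.76 and -0.89, and 4.48% of genes lay above 0 beside 45% of all genes. The last 152 genes of chromosome 1, from DISP1 on, had a median of -0.47. With normexp each of these medians kept its sign and was smaller, 0.21 for the second stretch of chromosome 17 and -0.44 for the end of chromosome 2. The cause of the shifts was not tested.

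**Figure D5:**
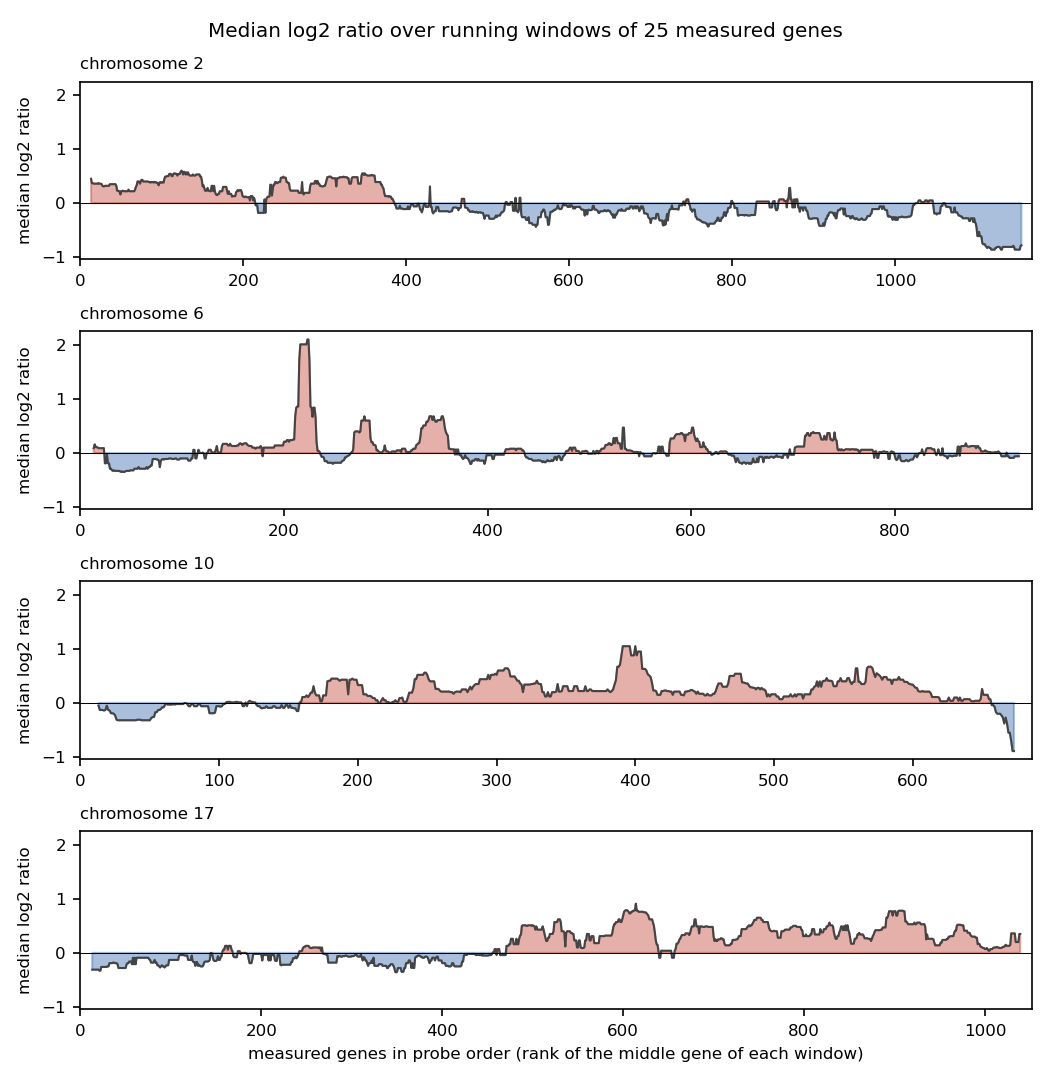
Median log2 ratio over running windows of 25 measured genes along chromosomes 2, 6, 10 and 17. Red areas lie above 0 and blue areas below it.

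In A2780CBNDXL, measured on its own 4 arrays against a control with the same name, A2780CC, the same lists were read as well. The interferon response list had 8 higher and 10 lower of 45 measured members there, beside 7.7% and 9.2% of all genes, and a median of 0.09, and MHC class I had 1 higher and 6 lower with a median of -0.91. The cholesterol and fatty acid list had 1 higher and 5 lower with a median of -0.43. SPP1 stood at 5.33 in A2780CBN, while in A2780CBNDXL, dim on every array, it was lower with a log2 ratio of -1.42 as the bound, and LAYN was low in both (-7.27 and -7.19). The end of chromosome 2 had a median of 0.03 and the second stretch of chromosome 17 one of 0.10 in A2780CBNDXL. The difference between the lines was not tested. On array 1 of A2780CBNDXL replicate spots varied by 21.6% and 22%, more than on any other array, and the part of that array in its values was not tested.

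A2780CBN is 1 pooled sample, and the 4 arrays show labelling and hybridization error but not the spread between cultures, so no test across samples was possible. Within the array data the sign of every ratio rests on the labels of the forward arrays, because the dye entries of the reverse arrays conflict with their names. Before turning, raw red over green ratios of forward and reverse arrays correlated at -0.793 to -0.769 over probes above background, so their dyes are opposite. The paper's quantitative PCR, against the parent line, found GCLC, PRSS7 and PARP9 higher and ANXA1, LAYN and AKR1C3 lower in A2780CBN. Those directions are the same as here, but for PARP9 the paper's PCR fold was well below its array fold. For GSTO1, MT2A and CDH7, called higher here, that PCR found no significant difference. Ratios of dim genes are uncertain in size, and 82 of the 231 called genes that are named or listed lost their call with normexp. The stricter linear model called 125 of them, without B2M, PSMB9, ANXA1, ERBB4, HOXB9, VIM and CDKN1A. The arrays measured RNA only. In the paper's immunoblots GCLC protein differed significantly among the resistant lines, with most of the difference in A2780CBN. Its ANXA1 and MT2A blots went against what the paper expected from its arrays. Whether any of these changes bears on resistance was not tested.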

How the data were processed

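Expression was measured on Agilent 2-colour arrays with 41000 probes for 30238 gene names in A2780CBN, as 1 pooled sample on 4 arrays (2 labelling directions on each of 2 slides). The deposited files hold, per spot, the processed signal intensity of the green and the red channel in arbitrary units, which the authors obtained by background subtraction and dye normalization with Agilent Feature Extraction (slide 1 with 10.7.1.1, slide 2 with 10.7.3.1). The submitters' notes also name Partek, without a version. Log2 ratios, resistant line over control, were computed from the processed signals of non-control spots, turned over on reverse arrays, and averaged first within and then over directions. Spots that the software marks as outliers were dropped, replicate spots were averaged, and saturation did not occur.

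A gene is represented by its brightest probe over all 8 arrays. It was measured when this probe was well above background in the same RNA on all 4 arrays, and called at a mean log2 ratio of at least 1 in size with the same sign on all 4. When a side was dim on every array, the fold is a lower bound from limma Aquantile-scaled signals. Between 63.6% and 67% of spots were above background, the median signal was 2.44 to 3.1 times the background, and replicate spots varied by 4.46% to 5.67% on these arrays. The SD of a gene describes labelling and hybridization only.

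By accession 26217 probes were matched to current symbols, by symbol 2169 and by an older symbol 554, and 12060 were not matched. Genes named are the 15 largest and 15 smallest ratios measured on both sides, the 10 largest lower bounds each way, members of gene lists (30 of 31 lists are reported, and nothing follows about the list that is not) and the end genes of chromosome windows and stretches. Names that are accessions, clones or numbered placeholders were passed over. List members were chosen with earlier results of these data known, and the limits of long stretches after seeing the values. Promoters are RefSeq GRCh38.p14 sequences, found for 10250 measured genes.

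Alternatives were normexp background correction with an offset of 50 and loess, median-centred ratios of background-subtracted signals, and leaving out 1 array at a time. Each slide or direction alone, the mean over probes, both channels above background and no filter on dim probes were also used. Fold limits of 1.5 and 3 were used too. The last was a linear model with line, dye and slide as its 3 factors (false discovery rate 0.05). It was read with and without genes that had a dye or slide term. The model has no array term, so the pairing of channels on an array is left out, and its error is that of arrays only. The paper names a 3-way ANOVA without its factors. It lists GCLC, ANXA1 and GSTO1 as significant in A2780CBN, and the stricter model here did not call them. No paired analysis was possible because each line is 1 sample. The steps were tested on simulated data. Software was matplotlib 3.10.9, scipy 1.17.1, pandas 2.3.3 and numpy 2.4.6 under Python 3.11.15, with limma 3.58.1 and version 1.17.8 of data.table under R 4.3.3.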

Additional observations from a re-analysis of the deposited data

Results flagged for a closer look

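Outlying array values were looked for in 81 groups of 4 values from A2780CBN, for which chance alone marks about 1 in 20 groups, and 3 were found. LAYN was less extreme on array 1 (-6.82) than on the other arrays, RBPMS more extreme on array 2 (-6.20), and the median of the cadherin, tight junction and epithelial-mesenchymal list was closer to 0 on array 3 (-0.05).

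SPP1 drew attention because it was higher in A2780CBN (5.33) and lower in A2780CBNDXL, where the computed ratio was -2.84 but the resistant line was dim on every array, so that the bound is -1.42. List members called in opposite directions drew attention too. Of all measured genes 8% were called higher in A2780CBN and 9.2% lower in A2780CBNDXL. The share of all genes called in opposite directions was not counted, so the numbers below do not show an excess in any list. Higher in A2780CBN and lower in A2780CBNDXL were 8 interferon response members (IRF1, IFIT1, IFIT2, IFIT3, IFIT5, GBP1 and PARP14 among them), 5 of cholesterol and fatty acid synthesis (INSIG1, HMGCS1, HSD17B7, STARD4 and ACSL1) and 4 of MHC class I (HLA-C, HLA-F, TAP1 and PSMB9). TGF-beta signalling had 3 (TGFB2, TGFBR2 and LTBP1). With 2 each came BCL2 family and caspases (BIRC3 and CASP1), extracellular matrix (COL12A1 and MMP10), ATF4 response (TRIB3 and NUPR1) and growth factors (ROR2 and IGFBP6), and with 1 each glutathione synthesis and the NRF2 pathway (GCLC in both), metallothioneins (MT2A), glycolysis (ALDOC), cytokines (IL6R) and tubulins (TUBB2B).

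Lower in A2780CBN and higher in A2780CBNDXL were 2 growth factor members (PDGFRA and FGF18) and 1 each of the NRF2 pathway (AKR1C3), proliferation (CDK6), extracellular matrix (VCAN), annexins and S100 proteins (S100A11), cytokines (ACKR3) and other cell types (PDGFRA). Of all measured genes 4.55% were called lower in A2780CBN and 7.7% higher in A2780CBNDXL, and the share called both ways was not counted. The difference between the lines was not tested for any of these genes.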

How the results depend on the processing

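The number of genes called higher in A2780CBN (1436) fell to 424 with normexp correction and loess, to 769 at the 3-fold limit and to 720 in the linear model without genes that had a dye or slide term, and was 2614 at the 1.5-fold limit. The number called lower (817) moved under the same settings, to 181, 352, 444 and 2246, and to 516 with both channels above background. Leaving out 1 array gave 1450 to 1472 higher and 814 to 877 lower genes, and the single slides, the single directions, background-subtracted signals, the mean over probes, no filter and the full linear model stayed within 1.5 times the stated counts. Of the 2253 called genes 605 were called with normexp, its offset of 50 and loess together, and 1163 in the stricter linear model. The median ratio of all genes was -0.01 with normexp.

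Of 9968 alternative values for 832 named genes 475 moved by more than the SD between arrays and none reversed its sign. Of 806 alternative list counts 141 moved, and of 115 alternative chromosome medians 18 moved. Among 231 called genes that are named or listed, 149 were called with normexp and 125 in the stricter model. The cause of these movements was not tested. The median signal was 2.44 to 3.1 times the background.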
